A study of Mus musculus with 8 samples.

Results

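The insulin-like growth factor (IGF) family of the fetal mouse heart was described from its 10 core genes, selected by symbol from the 26590 gene symbols of a deposited expression table. They were 2 ligands (*Igf1* and *Igf2*), 2 receptors (*Igf1r* and *Igf2r*) and 6 binding proteins (*Igfbp2* to *Igfbp7*). The table held 20 transcript rows for them. Each gene was represented by the row with the highest average of the means of both genotypes, and the other rows were used as a check. This choice used the level and not the genotype difference. The family itself was chosen when *Igfbp7* was already known to be raised in these hearts, so its rise is given as a description and supports nothing else.

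Total RNA of whole hearts was sequenced from 4 *Dio3*+/+ and 4 *Dio3*-/- fetuses, all C57BL/6J, with each RNA sample from an individual fetus. *Dio3* encodes the type 3 deiodinase, the enzyme that inactivates thyroid hormones, and *Dio3*-/- fetuses lack it in every cell from conception. The null allele was made on a 129/SVJ background and then crossed into C57BL/6J. The titles of all 8 samples give embryonic day E13.5. The age field of the labels agrees for the 4 *Dio3*+/+ hearts and for 2 *Dio3*-/- hearts but reads E18.5 for the other 2. The study's Results and its supplemental gene list also give E13.5 for these hearts. Its Methods and the legend of its heart expression figure name yet another day, so the age is not certain in either genotype.

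The IGF system couples nutrient and hormone supply to tissue growth. IGF1 and IGF2 are secreted peptides that signal through the tyrosine kinase receptor IGF1R. IGF2R, which is also the mannose 6-phosphate receptor, takes up IGF2 and delivers it to lysosomes. The binding proteins hold IGFs in the extracellular space, where proteases release them. In the midgestation heart, IGF2 from the epicardium and endocardium is known to drive proliferation of the ventricular wall.

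The sources used here give a mean level per genotype and the coefficient of variation (CV, the SD divided by the mean) over the 4 hearts, not the level of each heart. Levels are taken as RPKM, reads normalized to transcript length and to the mapped reads of the sample. The unit is that of the authors' filter, since none is named with the values, and comparisons between genes rest on it. For 4 values, the mean and the SD fix the limits within which every single value must lie, and these limits, widened for rounding, are given below as the possible range of the hearts. Differences are *Dio3*-/- minus *Dio3*+/+ in log2(RPKM + 0.5), which understates changes of low genes. They were tested with limma over all rows above 1 RPKM in at least 1 genotype. The number of reads behind each value is unknown from this table. In whole hearts, fewer cells of a type and less RNA per cell cannot be told apart.

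The level of *Dio3* was 0.35 RPKM (CV 1.23) in *Dio3*+/+ and 0.13 RPKM (CV 0.76) in *Dio3*-/- hearts, too low to check the labels. Absence of *Dio3* RNA is shown in the paper only for another line, in which the whole gene is deleted. All 6 cardiomyocyte markers were present, with means from 24.2 to 5638 RPKM, and all 6 had higher *Dio3*-/- means (median difference 0.24). Of these, *Ryr2*, the calcium release channel, rose from 24.2 to 36.6 RPKM (adjusted *P* = 0.0231 by limma). Transcripts of other tissues moved between hearts. Summed over 8 liver markers, the level was 16.0 RPKM in the former and 108.1 RPKM in the latter hearts (CVs of 0.50 to 1.41 and 0.89 to 1.26). The summed level of the 4 red cell markers in the table was 29698 and 10133 RPKM, respectively. Most of this sum was *Hbb-y*, at 29101 and 9909 RPKM, which did not pass the test (adjusted *P* = 0.0751 by limma). All 4 had lower *Dio3*-/- means, and for 1, *Hbb-bh1* at 317.8 and 110.9 RPKM, the adjusted *P* value was 0.0468 by limma. The hearts are described as male, but *Xist* was at 35.6 RPKM (CV 0.99) and 40.0 RPKM (CV 0.55), and 4 Y-linked genes had CVs of at least 1.03 in both genotypes.

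Of the 10 IGF genes, *Igfbp7* and *Igfbp6* rose in *Dio3*-/- hearts, and no ligand, receptor or other binding protein passed the test (adjusted *P* under 0.05 by limma). *Igfbp6* was tested only because its *Dio3*-/- mean was above 1 RPKM, and with Welch's test it did not pass (adjusted *P* = 0.175), so only *Igfbp7* was called by both tests. Over all 14657 genes tested, 1.91% rose and 0.382% fell, and 2.29% passed in either direction. For the same 2 genes of the 10, the possible ranges of the hearts of the genotypes did not meet, which held for 3.86% of all tested genes. Before adjustment, *Igf2* and *Igfbp2* had a *P* value under 0.05 with a lower *Dio3*-/- mean (2 of 10, against 4.46% of all tested genes), and neither limma after adjustment nor Welch's test called a fall in any of the 10. The median difference of the 10 genes was -0.21, with 4 values above 0 and 6 below it, and that of all tested genes was 0.039, with 63.3% of values above 0.

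**Figure D1:**
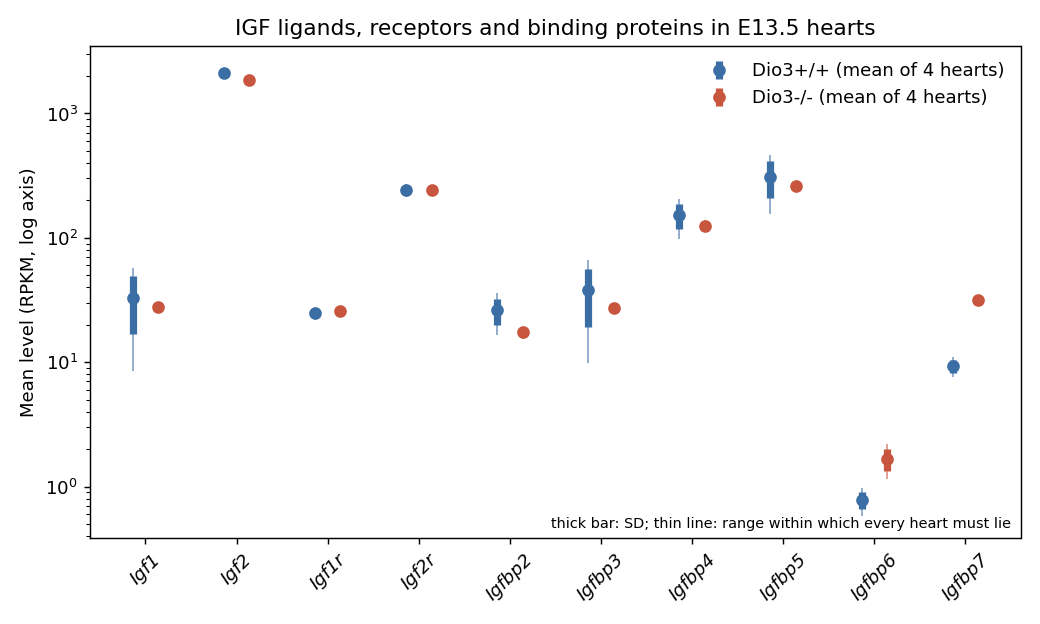
Mean level of each IGF gene in *Dio3*+/+ (blue) and *Dio3*-/- (red) hearts in RPKM on a log axis; thick bars are the SD over 4 hearts and thin lines the range within which every heart must lie. The ranges of the genotypes are apart for *Igfbp6* and *Igfbp7*, and the blue bars of *Igf1*, *Igfbp2*, *Igfbp3*, *Igfbp4* and *Igfbp5* are much longer than the red ones.

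The sequences upstream of both raised genes are shown because thyroid hormone receptors, which *Dio3* shields from excess hormone, act at DNA sites with the half-site AGGTCA. They are the 250 bases before the start site in RefSeq (build GRCm38.p6), 5′ to 3′ on the strand of the gene, *Igfbp7* from chr5:77408046-77408295 (minus strand) and *Igfbp6* from chr15:102143936-102144185 (plus strand). Capitals mark the GC box GGGCGG, a site of SP and KLF factors, on either strand.
Igfbp7: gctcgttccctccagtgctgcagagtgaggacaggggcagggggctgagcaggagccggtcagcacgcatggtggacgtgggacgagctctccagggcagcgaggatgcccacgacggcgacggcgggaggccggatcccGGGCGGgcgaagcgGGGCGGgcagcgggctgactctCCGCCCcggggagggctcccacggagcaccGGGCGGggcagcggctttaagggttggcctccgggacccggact
Igfbp6: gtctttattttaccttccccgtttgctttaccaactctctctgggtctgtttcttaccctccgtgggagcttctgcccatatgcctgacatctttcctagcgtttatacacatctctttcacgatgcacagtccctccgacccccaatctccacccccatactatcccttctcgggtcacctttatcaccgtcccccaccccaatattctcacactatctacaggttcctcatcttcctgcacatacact

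The *Igfbp7* window held 4 GC boxes between positions -110 and -39 from the start site, and 74% of its bases were G or C. The *Igfbp6* window held none and had 49.6% G or C. Of 32536 such windows in the table, 33% held a GC box and the median was 52.4% G or C. Neither window held AGGTCA, which 14% of all windows had on either strand. Among the other IGF genes, AGGTCA was found upstream of *Igf1*, *Igf1r*, *Igf2r* and 1 of the 4 start sites of *Igf2*, none of which passed the test. GC boxes were found there too, 3 upstream of *Igfbp2*, 3 of *Igf2r*, 2 of *Igf1r* and 3 over 2 start sites of *Igf2*. These matches describe the letters of these windows only.

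*Igf2* was the most abundant of the 10 genes. Its mean was 2131 RPKM in *Dio3*+/+ hearts (CV 0.05, possible range 1956 to 2307) and 1874 RPKM in *Dio3*-/- hearts (CV 0.03, possible range 1775 to 1972). These ranges meet only at their edges. Only 23 other genes exceeded it when both genotypes were averaged. *Igf2* is expressed from the paternal allele and is the main fetal growth factor of the family. The difference was -0.19 (95% interval -0.33 to -0.040, adjusted *P* = 0.159 by limma), a ratio of *Dio3*+/+ to *Dio3*-/- of 1.14. The 3 *Igf2* rows gave differences of -0.19, -0.19 and -0.19. Rows of 1 gene can share reads and are not separate evidence. Of 5 markers of the epicardium, a source of IGF2, none passed the test, with differences from -0.031 to 0.23.

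The transcripts around *Igf2* were also measured. *H19*, the maternally expressed noncoding RNA next to *Igf2*, had means of 2436 RPKM (CV 0.03) and 2359 RPKM (CV 0.04), a difference of -0.046. *Igf2as*, on the opposite strand, had 11.9 and 10.9 RPKM. *Mir483*, the microRNA gene within an *Igf2* intron, had 1.36 RPKM (CV 0.21) and 0.44 RPKM (CV 1.5). None of these passed the test (adjusted *P* = 0.754, 0.302 and 0.247 by limma). Without a stated use of strand in counting, reads from *Igf2* and *Igf2as* cannot be told apart, and *Igf2as* was at a small fraction of the *Igf2* level.

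*Igf1*, the ligand that dominates after birth, was far below *Igf2*. The ratio of the *Igf2* mean to the *Igf1* mean was 64.4 in *Dio3*+/+ and 67.0 in *Dio3*-/- hearts. *Igf1* averaged 33.1 RPKM (CV 0.49) in *Dio3*+/+ and 27.95 RPKM (CV 0.06) in *Dio3*-/- hearts. The *Dio3*-/- hearts all lay between 25.2 and 30.7 RPKM. By the same arithmetic, at least 1 *Dio3*+/+ heart was at 41.1 RPKM or above and at least 1 was at 25.1 RPKM or below, so the *Dio3*+/+ hearts reached beyond the *Dio3*-/- hearts on both sides, as was so for 1.9% of tested genes. The difference was -0.24 (95% interval -0.87 to 0.39, adjusted *P* = 0.702 by limma). The interval holds both a fall of almost 1 log2 unit and a clear rise, so *Igf1* was not resolved by these hearts. The *Igf1* rows numbered 5 and gave differences from -0.24 to -0.23, although 1 row (uc007gqx.2) was lower than the others, at 15.1 and 12.8 RPKM.

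Both receptors had the narrowest 95% intervals of the difference among the 10 genes. *Igf1r*, the signaling receptor, had means of 24.7 RPKM (CV 0.07, possible range 21.9 to 27.5) and 25.7 RPKM (CV 0.03, possible range 24.3 to 27.0). The *Dio3*-/- range lies inside the *Dio3*+/+ range. The difference was 0.054 (95% interval -0.072 to 0.18, adjusted *P* = 0.662 by limma). *Igf2r*, the clearance receptor, had means of 241.9 RPKM (CV 0.08, possible range 211.1 to 272.8) and 243.2 RPKM (CV 0.04, possible range 226.7 to 259.6). Here too the *Dio3*-/- hearts fell within the possible *Dio3*+/+ range. The difference was 0.0074 (95% interval -0.14 to 0.15, adjusted *P* = 0.967 by limma), and its sign turned to -0.031 after centring on the median log2 ratio of all rows. These intervals leave room for changes of up to about 0.18 and 0.15 on the log2 scale. *Airn*, the noncoding RNA that overlaps *Igf2r* on the opposite strand, was at 16.8 RPKM in both genotypes.

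Transcripts of the clearance receptor were more abundant than those of the signaling receptor in both genotypes. The ratio of the *Igf2r* to the *Igf1r* mean was 9.79 in *Dio3*+/+ and 9.47 in *Dio3*-/- hearts. *Igf2* exceeded *Igf2r* by a ratio of 8.81 and 7.71, respectively.

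*Igfbp7* encodes a secreted protein that binds IGFs weakly and is deposited around blood vessels. In *Dio3*+/+ hearts its mean was 9.30 RPKM (CV 0.12), and no heart could have been above 11.05 RPKM. In *Dio3*-/- hearts its mean was 31.6 RPKM (CV 0.05), and no heart could have been below 29.0 RPKM. Every *Dio3*-/- heart, whichever age its label gives, was therefore above every *Dio3*+/+ heart. The means differed 3.40-fold, a log2 difference of 1.71 (SE 0.08, 95% interval 1.53 to 1.89, adjusted *P* = 5.74e-06 by limma). It ranked 4 by size of rise among the 336 genes that passed. The other *Igfbp7* row (uc012dxr.1) went from 8.35 to 28.25 RPKM, a difference of 1.70. Welch's test from the same summaries also called it (adjusted *P* = 0.0219).

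Markers of vessels and liver were set beside *Igfbp7*. None of the 6 markers of endothelium and endocardium passed the test (smallest adjusted *P* = 0.198 by limma), and their median difference was 0.099. *Pecam1*, an adhesion molecule of endothelial cells, had 44.6 and 48.2 RPKM. The CV of *Igfbp7* over *Dio3*-/- hearts was 0.05, while the 8 liver markers had CVs of 0.89 to 1.26 over the same hearts. The part of liver RNA in the *Igfbp7* result was not tested.

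*Igfbp6*, whose product prefers IGF2 over IGF1, was the least expressed member. Its mean was 0.78 RPKM in *Dio3*+/+ hearts (CV 0.16, possible range 0.583 to 0.979) and 1.68 RPKM in *Dio3*-/- hearts (CV 0.20, possible range 1.16 to 2.20). These ranges do not meet. The means differed 2.15-fold, a log2 difference of 0.77 (SE 0.13, 95% interval 0.47 to 1.07, adjusted *P* = 0.0222 by limma). It has a single row. Its *Dio3*+/+ mean lay below the limit of 1 RPKM for testing.

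*Igfbp2* had the widest gap below 0. Its product binds both IGFs and is prominent in fetal tissues. It averaged 26.1 RPKM over the *Dio3*+/+ hearts (CV 0.24, possible range 16.5 to 35.7) and 17.4 RPKM over the *Dio3*-/- hearts (CV 0.07, possible range 15.4 to 19.4). At least 1 *Dio3*+/+ heart was at 29.2 RPKM or above, beyond every *Dio3*-/- heart, but overlap at the lower end is possible. The difference was -0.57 (95% interval -0.90 to -0.25). Its adjusted *P* value was 0.0732 by limma and from 0.0566 to 0.352 over the 9 alternatives, none of which called it.

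**Figure D2:**
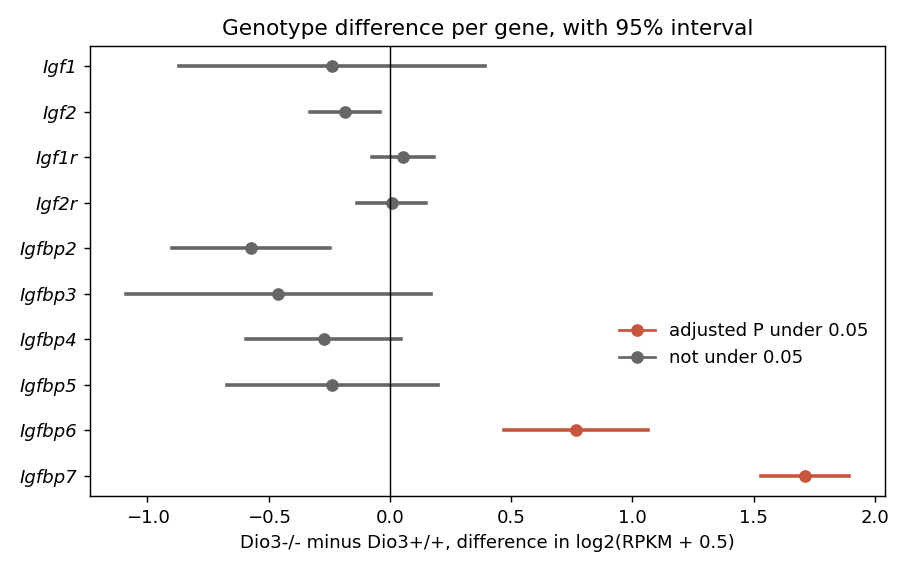
Difference between genotypes for each IGF gene in log2(RPKM + 0.5), *Dio3*-/- minus *Dio3*+/+, with the 95% interval as a line; red marks an adjusted *P* value under 0.05 by limma. *Igfbp6* (0.77) and *Igfbp7* (1.71) lie to the right of 0, the receptors have the shortest lines, and *Igf1* and *Igfbp3* have the longest.

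The 3 remaining binding proteins had lower means in *Dio3*-/- hearts but did not pass the test. *Igfbp5*, the most abundant binding protein and one that associates with extracellular matrix, had means of 310.4 RPKM (CV 0.33) and 263 RPKM (CV 0.04). *Igfbp4*, an inhibitory binding protein that the protease PAPP-A cleaves, had 151.8 RPKM (CV 0.23) and 125.5 RPKM (CV 0.07). *Igfbp3*, the main carrier of IGFs in adult blood, had 38.0 RPKM (CV 0.49) and 27.4 RPKM (CV 0.03). All 3 spread far more between *Dio3*+/+ hearts than between *Dio3*-/- hearts. The differences were -0.24 for *Igfbp5* (95% interval -0.67 to 0.20), -0.27 for *Igfbp4* (-0.59 to 0.044) and -0.46 for *Igfbp3* (-1.09 to 0.17). Their adjusted *P* values by limma were 0.560, 0.341 and 0.424.

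The possible *Dio3*-/- ranges of these genes were 245.2 to 280.8 RPKM for *Igfbp5*, 111.4 to 139.6 RPKM for *Igfbp4* and 26.0 to 28.9 RPKM for *Igfbp3*. At least 1 *Dio3*+/+ heart was above each range, at 360.8 RPKM or more for *Igfbp5*, 168.9 RPKM or more for *Igfbp4* and 47.2 RPKM or more for *Igfbp3*. With a higher mean and a wider spread over *Dio3*+/+ hearts, such a heart follows from the arithmetic and does not tell why the means differ. A *Dio3*+/+ heart above every *Dio3*-/- heart was found in this way for 6 of the 10 IGF genes and for 22.3% of all tested genes. These are the same 6 genes that had a lower *Dio3*-/- mean.

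The spread between hearts differed within the family. *Igf1*, *Igfbp3* and *Igfbp5* had a CV in *Dio3*+/+ hearts that was 8.17, 16.3 and 8.25 times that in *Dio3*-/- hearts, and 98.4%, 99.7% and 98.4% of tested genes had a smaller ratio. *Igfbp2* and *Igfbp4* had ratios of 3.43 and 3.29. *Igf2*, *Igf1r*, *Igf2r*, *Igfbp6* and *Igfbp7* had ratios from 0.80 to 2.40, against a median of 1.43 over all tested genes. Over the *Dio3*-/- hearts, which include both with a conflicting age label, the CVs of the 10 genes were 0.03 to 0.20. The part of age in these values was not tested.

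Markers of several other tissues and cell types also spread more between *Dio3*+/+ hearts. Of 7 markers of fibroblasts and valve mesenchyme, the CV was 0.09 to 0.55 over *Dio3*+/+ hearts and 0.01 to 0.10 over *Dio3*-/- hearts. *Col1a1*, a chain of the main fibrillar collagen, had 203.9 RPKM (CV 0.42) and 168.3 RPKM (CV 0.01), while *Dcn*, a matrix proteoglycan, had 63.5 RPKM (CV 0.09) and 64.7 RPKM (CV 0.07). Their summed level was 839.6 and 737.4 RPKM, with lower *Dio3*-/- means in 5 of the 7, and none passed the test. Among markers of cartilage and bone, 3 of 5 were tested, with CVs of 0.46 to 1.54 over *Dio3*+/+ and 0.07 to 0.59 over *Dio3*-/- hearts and a summed level of 59.2 and 33.4 RPKM for the 5. *Ibsp*, a bone matrix protein, was at 11.2 RPKM (CV 1.54) and 0.03 RPKM (CV 0.59), and passed the test as lower (adjusted *P* = 0.0330 by limma). The 4 skeletal muscle markers moved both ways, 2 with a higher and 2 with a lower *Dio3*-/- mean, and none passed the test. The transcription factor *Myog* was at 9.78 RPKM (CV 1.56) and 1.17 RPKM (CV 0.86), and *Ckm*, a creatine kinase that cardiomyocytes also express, at 50.4 RPKM (CV 0.33) and 87.8 RPKM (CV 0.23). The 3 macrophage markers tested had CVs of 0.22 to 0.45 over *Dio3*+/+ and 0.01 to 0.10 over *Dio3*-/- hearts. The 6 endothelial and endocardial markers had CVs of 0.06 to 0.08 over *Dio3*+/+ hearts. The part of these tissues and cells in the *Igf1*, *Igfbp2*, *Igfbp3*, *Igfbp4* and *Igfbp5* values was not tested, since it needs the level of each heart.

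**Figure D3:**
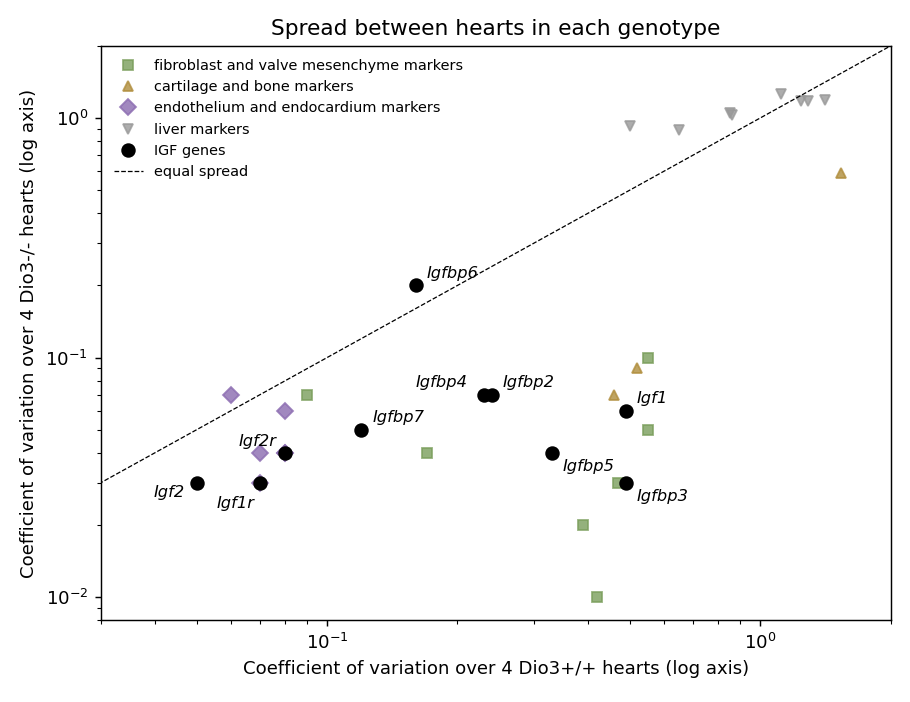
CV over 4 *Dio3*+/+ hearts against CV over 4 *Dio3*-/- hearts, both on log axes, for the 10 IGF genes (black) and for marker genes above 1 RPKM; the dashed line marks equal spread. *Igf1*, *Igfbp3* and *Igfbp5* lie near most of the fibroblast and 2 of the cartilage and bone markers, at 0.33 or more across and 0.10 or less upward, while *Igf2* and both receptors lie near the endothelial markers.

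The upper end of the order of levels was the same in both genotypes, and *Igfbp7* and *Igfbp2* changed place below it. In each genotype *Igf2* was first, followed by *Igfbp5* and *Igf2r*, whose means differed by less than the sum of their SDs, and then by *Igfbp4*. In *Dio3*+/+ hearts, the neighbors *Igfbp3*, *Igf1*, *Igfbp2* and *Igf1r* were not separated from each other by more than the sum of their SDs, and *Igfbp7* came below all of them in rank 9. In *Dio3*-/- hearts, *Igfbp7* was in rank 5, above *Igf1* by 3.65 RPKM, which exceeded the sum of their SDs (3.26 RPKM). *Igfbp2* was there in rank 9, below *Igf1r* by 8.28 RPKM with a sum of SDs of 1.99 RPKM. *Igf1* and *Igfbp3* also exchanged places, with means that differed by less than the sum of their SDs in both genotypes.

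Summed over the 6 binding proteins, the transcripts reached 536.3 RPKM without and 466.6 RPKM with the deletion. *Igfbp5* made up 57.9% and 56.4% of the sum and *Igfbp4* 28.3% and 26.9%. *Igfbp7* went from 1.73% to 6.77% and *Igfbp6* from 0.145% to 0.360%, so both genes that rose remained minor parts of the pool. These shares come from genotype means and were not tested.

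**Figure D4:**
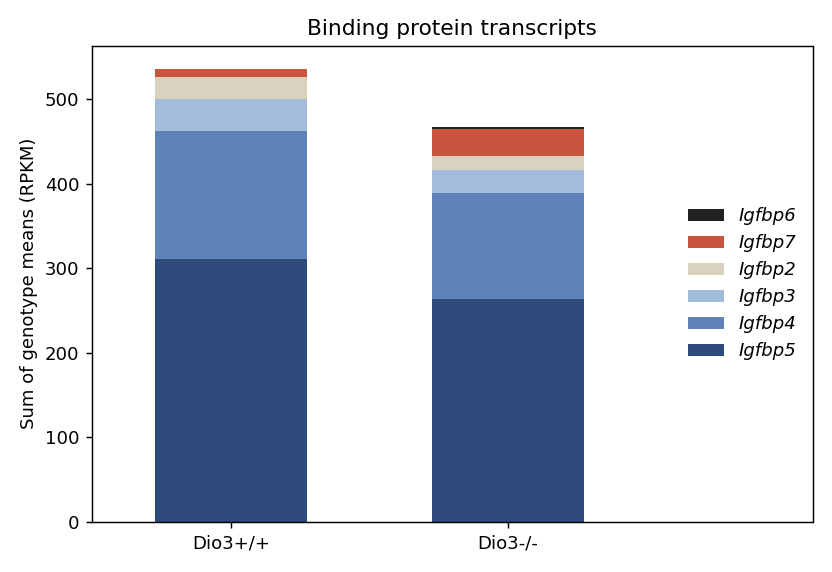
Sum of the genotype means of the 6 binding protein transcripts in RPKM, stacked by gene, for *Dio3*+/+ and *Dio3*-/- hearts; no error is drawn, since the sum per heart is not given. *Igfbp5* and *Igfbp4* fill most of both bars, and the red segment of *Igfbp7* is thicker in the *Dio3*-/- bar.

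Other genes of the pathway were read from a list of 42, all of them in the table, of which 34 were above 1 RPKM in at least 1 genotype. Among the 34, 2 rose and 0 fell by limma (5.88%), with a median difference of 0.043. Over all tested genes, 2.29% passed in either direction and 1.91% rose. Before adjustment, 8 had a higher and 3 a lower *Dio3*-/- mean at a *P* value under 0.05, which 19.7% of all tested genes had in either direction, and Welch's test called none. *Htra1*, a secreted serine protease that cleaves IGFBP5, went from 22.8 RPKM (CV 0.03) to 48.1 RPKM (CV 0.05), a 2.11-fold rise and a log2 difference of 1.06 (SE 0.05, adjusted *P* = 5.74e-06 by limma) that both of its rows showed. With Welch's test its adjusted *P* value was 0.0503. *Stc2*, which encodes an inhibitor of the IGFBP4 protease PAPP-A, went from 2.67 RPKM (CV 0.10) to 3.68 RPKM (CV 0.07), a log2 difference of 0.40 (adjusted *P* = 0.0441 by limma). Of its 2 rows, 1 was called. It was not called under 4 of the 8 alternatives in which it was tested.

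The protease itself, *Pappa*, had means of 2.59 RPKM (CV 0.87) and 1.66 RPKM (CV 0.04), another gene with wide spread among *Dio3*+/+ hearts only, and a difference of -0.52 (adjusted *P* = 0.564 by limma). *Igfbp1*, a liver-derived binding protein, was at 0.21 RPKM (CV 1.17) and 0.36 RPKM (CV 1.06) and *Igfals*, the blood carrier subunit, at 0.06 and 0.09 RPKM. Both were too low to be tested.

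Downstream of the receptors no gene passed the test. The 7 adaptors tested had differences from -0.50 to 0.14. *Irs2*, a docking protein of the insulin and IGF1 receptors, had the lowest, from 13.0 RPKM (CV 0.11) to 9.02 RPKM (CV 0.16), with an adjusted *P* value of 0.0580 by limma and of 0.0441 when only genes with a mean above 5 RPKM were tested. *Insr*, the insulin receptor, had 22.1 and 26.8 RPKM, a difference of 0.27 (adjusted *P* = 0.126 by limma). The 14 kinases and phosphatases had differences from -0.06 to 0.15, a median of 0.10, and 11 of 14 values above 0, against 63.3% of values above 0 over all tested genes. The highest means of the list were those of *Grb10*, an imprinted adaptor that restrains growth (449.4 and 427.4 RPKM), *Akt1*, a kinase below the receptors (116.9 and 127.0 RPKM), and *Ctgf*, a matrix protein with an IGFBP domain (44.1 and 45.2 RPKM). The 3 *Igf2bp* genes, which encode proteins that bind *Igf2* mRNA, had differences from -0.12 to 0.041.

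**Figure D5:**
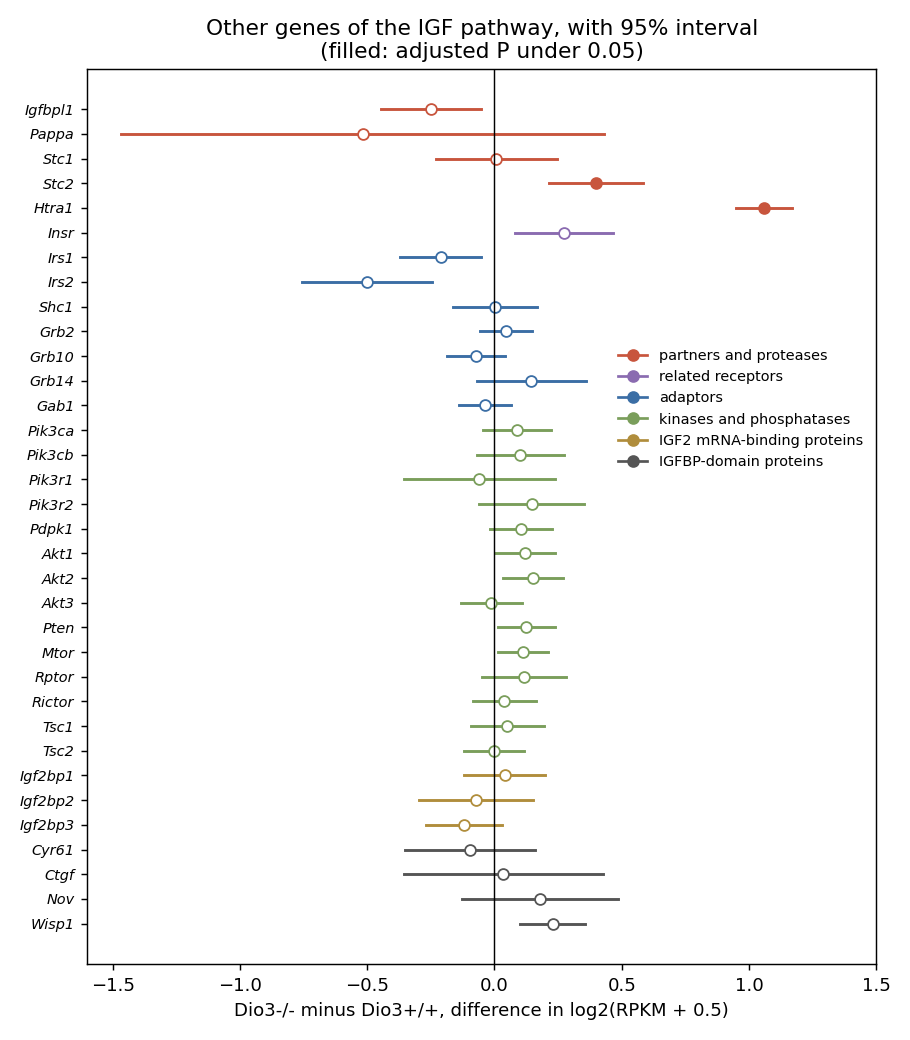
Difference between genotypes in log2(RPKM + 0.5), *Dio3*-/- minus *Dio3*+/+, with 95% interval, for the 34 other pathway genes tested, colored by role; filled points have an adjusted *P* value under 0.05 by limma. *Htra1* (1.06) and *Stc2* (0.40) are filled, and the kinases and phosphatases cluster between -0.06 and 0.15.

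The genes nearest to the raised members were found from their pairs of genotype means in log2(RPKM + 0.5). Nearest to *Igfbp7* was *Art3*, an ADP-ribosyltransferase family gene, at a distance of 0.28 (7.56 and 31.95 RPKM), followed by *Mir3064* (0.70) and *Upp1* (0.71). Nearest to *Igfbp6* were *Abcd2* (0.02), *Car4* (0.12) and *Camk2b* (0.14). Likeness over the means of 2 genotypes describes level and difference only.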

How the data were processed

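Ribosomal RNA-depleted total RNA was sequenced as single-end reads. The authors aligned them with Novoalign (version 2.08), kept uniquely mapping reads and brought all samples to the depth of the smallest by linear scaling. The build is not given in the sources used here. The authors deposited 1 table of 51414 UCSC transcript rows with genotype means, taken as RPKM because their filter is in RPKM and the header names no unit. The authors' second measure was a ratio, the coefficient of variation (SD over mean), given to 2 decimals. Their fold changes and *q* values were not used. Depth per sample is unknown from these values. The Methods give a range of aligned reads per sample and a mean of mapped reads, but not the depth of each heart.

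For each row, log2(mean + 0.5) was taken, its SD was computed from that ratio by the delta method, and limma (version 3.58.1, in R 4.3.3) moderated the pooled variance, with 6 residual and 3.52 prior degrees of freedom and a mean-variance trend. Benjamini-Hochberg adjustment covered the 32703 rows (14657 symbols) above 1 RPKM in at least 1 genotype. The test was checked on simulated data with known changes, equal spread in both genotypes and independent rows. That check does not cover unequal spread between genotypes or rows that share reads, as in these data. Exact tests need single hearts and could not be run. The log of a mean stands in for the mean of logs, which is least exact for large coefficients of variation. Possible ranges of the hearts follow from the mean and SD of 4 hearts, widened by 0.005 for rounding of both. The largest coefficient in the table, 2, is the limit of a sample SD of 4 values. Members and lists were chosen with earlier results of these data known. Named were all members, their overlapping transcripts, pathway genes that passed or had the 3 highest means, marker genes and the 3 nearest genes of each raised member; *Irs2*, *Insr*, *Pappa*, *Igfbp1*, *Igfals* and the sex-linked genes were added after their values were seen. Alternatives were other pseudocounts (0.1 and 1), no filter, a mean above 5 RPKM, no trend, 1 row per gene, Welch's test from the summaries, centring on the median ratio, and raised coefficients of variation. Promoter letters came from RefSeq (GRCm38.p6), with a match for all 10 genes. Python (3.11.15), numpy (2.4.6) and pandas (2.3.3) were used.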

Additional observations from a re-analysis of the deposited data

How the results depend on the processing

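Of the 10 IGF genes, 2 were called in the settings used and in every alternative but 2. With a mean above 5 RPKM the number was 1, because *Igfbp6* was no longer tested, and with Welch's test it was 1. *Igfbp7* kept its direction and call in all 9 alternatives (log2 difference 1.66 to 1.75). *Igf2r* turned to -0.031 after centring on the median log2 ratio, a shift of 0.038 for all genes. The number of other pathway genes called, 2, became 1 without a filter, after centring and with raised coefficients of variation (*Stc2* was lost each time), and 0 with Welch's test, with which 62 of all rows were called. With a mean above 5 RPKM it was again 2, but with a different pair, since *Stc2* was no longer tested and *Irs2* was called as lower (adjusted *P* = 0.0441) beside *Htra1*. The number of rows called, 703, was 431 without a filter, 319 with 1 row per gene, where fewer rows were tested, 394 after centring and 414 with raised coefficients of variation. Other causes were not tested. Shares of the binding protein sum moved little when all rows of a gene were averaged.

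Leaving out single hearts, including those with a conflicting age label, was not run, since it needs the level of each heart. No paired analysis was possible because the columns carry genotype means and no replicate numbers.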
